A study of Mus musculus with 67 samples.

Results

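Cultured microglia of Orai1 knockout mice (KO) were compared after 6 h of thapsigargin with PDBu (Tg+PDBu, 5 libraries) and after 6 h of vehicle (6 libraries). The libraries were chosen by genotype and treatment in their labels: 11 of the 34 libraries in a table of cultured microglia, in a series of 67. KO mice carried floxed Orai1 alleles (Orai1fl/fl) together with Cx3CR1-cre/ERT2, a tamoxifen-inducible Cre expressed from the Cx3cr1 locus. The WT controls carried Orai1fl/fl without the Cre, so loss of Orai1 and presence of the Cre cannot be told apart. Microglia came from the hippocampus of pups at postnatal days 2 to 5 and were shaken off mixed glial cultures. KO and WT cultures alike received 1 µM hydroxytamoxifen. They were then given DMSO vehicle, 0.2 µM thapsigargin with 50 nM PDBu, or 10 ng/ml LPS. The LPS groups give side values here, and they also entered the shared row filter, scaling and estimate of spread. The labels do not state how many pups made up a culture. Where cultures were not separate animals, the p-values measure only the spread between these libraries.

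Microglia are the resident immune cells of the brain. Orai1 forms the pore of the plasma membrane channel that opens when STIM proteins sense that the calcium stores of the endoplasmic reticulum are empty. Thapsigargin empties those stores by blocking the SERCA pump, and PDBu, a phorbol ester, takes the place of diacylglycerol at protein kinase C. Calcium entering through Orai1 is known to act on transcription through calcineurin and NFAT. Thapsigargin also releases stored calcium and causes endoplasmic reticulum stress, and neither of these, nor protein kinase C activation, needs Orai1.

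The deposited counts carry no gene names or identifiers, and transcripts are given by row number counted from the top. For that reason the Orai1 transcript could not be read to see how complete the knockout was. Microglial markers, markers of astrocytes or other glia that may have come off with the cells, and gene lists of pathways could not be read either. In bulk cultures a change in the mix of cells and a change in RNA per cell cannot be told apart. Row 1, picked because it separated the genotypes in earlier work on these data, had 75 to 197 counts in each KO vehicle library and 0 in all 18 WT culture libraries. It had 0 to 4 counts in the KO libraries with Tg+PDBu, too few to check their genotype label, and 28 to 56 in KO libraries with LPS.

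The Tg+PDBu libraries came from 2 female cultures (numbered 16 and 7 in the library names) and 3 male cultures (18, 6 and 8). The vehicle libraries came from 3 female cultures (15, 16 and 7) and 3 male cultures (17, 18 and 6). Cultures 16, 7, 18 and 6 thus had both treatments. Total counts ran from 9135230 to 13605100 with Tg+PDBu and from 8774660 to 16070700 with vehicle. A difference between the groups was not detectable (exact permutation test over 462 splits, two-sided, p = 0.818, adjusted p = 0.818 over 3 such tests). Rows with at least 10 counts numbered 14234 ± 340 with Tg+PDBu (SD, n = 5) and 14392 ± 430 with vehicle (n = 6), with an exact permutation adjusted p of 0.818. With every library thinned to the lowest total they numbered 13858 ± 89.3 and 14082 ± 142 (exact permutation adjusted p = 0.0909). The 100 rows with the most counts held 19.2% ± 0.70 of all counts with Tg+PDBu and 20.5% ± 1.29 with vehicle (exact permutation p = 0.0649, adjusted p = 0.195).

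The treatment was the main difference among the KO libraries. In a principal component analysis of the 500 most variable rows, the first component held 59% of the variance. The 6 vehicle libraries lay between -31.7 and -24.4 on it and the 5 Tg+PDBu libraries between 32.2 and 34.6. The second component held 8.91% and put the males at 2.9 to 19.5 and the females at -16.8 to 0.0. Spearman correlations over rows were 0.97 to 0.985 among vehicle libraries and 0.971 to 0.985 among Tg+PDBu libraries. Between the treatments they were 0.929 to 0.937 within a culture (4 pairs) and 0.915 to 0.932 across cultures (26 pairs).

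**Figure D1:**
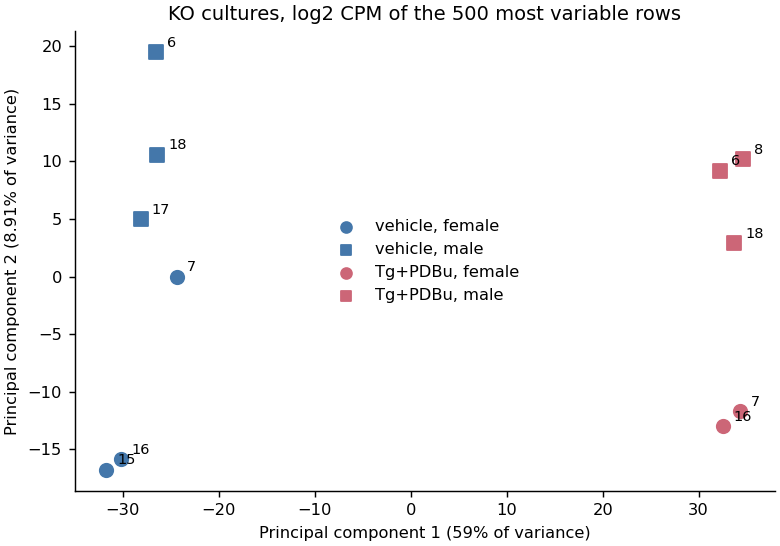
Each point is 1 KO library, placed by its first (horizontal) and second (vertical) principal component of log2 CPM, with treatment, sex and culture number marked. Vehicle libraries sit at -31.7 to -24.4 and Tg+PDBu libraries at 32.2 to 34.6 along the first component, and the sexes separate along the second.

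Tg+PDBu changed the level of 7788 of the 15979 rows tested in KO cultures, or 48.7% (edgeR quasi-likelihood F test, Benjamini-Hochberg adjusted p under 0.05). Of these, 2859 rows rose (17.9%) and 4929 fell (30.8%). The median change was 0.84 on the log2 scale among rows that rose and -0.88 among rows that fell, and the middle 50% of all rows tested lay between -0.74 and 0.28. Without adjustment 8748 rows had a p under 0.05. The balance of directions differed between fits, and the median over all rows was -0.23 with TMM factors. With RLE factors that median was -0.10 and 3534 rows rose and 3857 fell. In a fit of the KO vehicle and Tg+PDBu libraries alone it was -0.04, with 4197 and 3950. In the 4 cultures with both treatments it was -0.03, with 3547 and 2987. With all libraries more rows fell than rose under either scaling. The order turned in both of these fits limited to KO libraries, which also kept other rows. In a fit of the vehicle and Tg+PDBu libraries of both genotypes it did not turn, with 3100 and 5034 and a median of -0.21.

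Among the largest changes increases outnumbered decreases. Among changes under 2-fold 1700 rows rose and 2859 fell, and between 2-fold and 4-fold 699 rose and 1580 fell. Past 4-fold the numbers were 460 and 490, past 8-fold 202 and 130, and past 16-fold 100 and 34. The share of increases among called rows past 8-fold was 60.8%, and over 32 alternative fits it ran from 53.6 to 70%, always above 50%. Past 2-fold that share was 35.9%, and it ran from 34.1 to 51.3%, so not every fit had more decreases there. Counted relative to the median of all rows, 1530 called rows rose and 1471 fell past 2-fold. Past 4-fold 541 rose and 350 fell, and past 8-fold 232 rose and 97 fell.

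**Figure D2:**
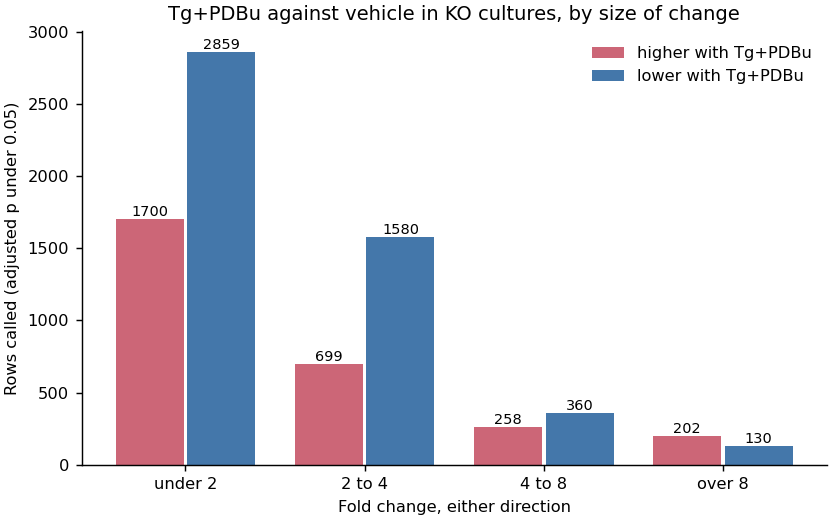
Bars give the number of rows (vertical axis) that rose or fell with Tg+PDBu in KO cultures at an adjusted p under 0.05, in 4 classes of fold change (horizontal axis). In this fit decreases outnumber increases below 4-fold (1580 against 699 between 2-fold and 4-fold). Increases outnumber decreases past 8-fold (202 against 130).

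The 2 groups of libraries did not overlap in 5984 of all 15979 rows tested. All 5 Tg+PDBu libraries lay above all 6 vehicle libraries in 2307 rows and below them in 3677, and 2221 and 3485 of these were among the called rows. The rows not called numbered 8191, and 777 of them had fitted changes over 2-fold, so their differences were not detectable at this spread. The median SE over all rows was 0.22 on the log2 scale.

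The precision differed with level. Rows were ranked by mean log2 CPM into 4 classes of equal size. In the lowest class (-2.46 to 1.82), 28.3% were called and the median SE was 0.58. In the highest class (5.65 to 13.1), 59.6% were called and the median SE was 0.12. The classes between them had 50% and 57% called. Changes past 4-fold were most numerous in the lowest class, with 264 rows that rose and 275 that fell. In the highest class 53 rose and 23 fell by that much, and in the class just below it 54 and 47.

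Some rows were near the floor in 1 of the groups. With at most 3 counts over the 6 vehicle libraries together there were 126 tested rows, of which 54 were called higher with Tg+PDBu and 41 had a count in each of the 5 Tg+PDBu libraries. With at most 3 counts over the 5 Tg+PDBu libraries there were 98, of which 25 were called lower and 15 had a count in each vehicle library. Both limits were met by 32 rows. Vehicle had 1 library more, so the limits are not equally strict. Rows this low in 1 group passed the row filter only through counts in other culture groups. The calls among them are therefore a description and no separate result.

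The called rows made up different shares of the RNA in the 2 groups. Rows called higher held 17.1% ± 0.138 of the counts in tested rows with vehicle (SD, n = 6) and 34.1% ± 0.444 with Tg+PDBu (n = 5). Rows called lower held 45.7% ± 1.25 and 28.5% ± 0.834. Rows not called held 37.2% ± 1.29 and 37.4% ± 0.556. The rows were chosen on these libraries, so the direction of these shares is given by the choice, and their sizes are a description. Rows that rose past 4-fold took 0.692% ± 0.0404 of the counts with vehicle and 5.60% ± 0.212 with Tg+PDBu, and rows that fell past 4-fold took 1.60% ± 0.0604 and 0.320% ± 0.0235.

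**Figure D3:**
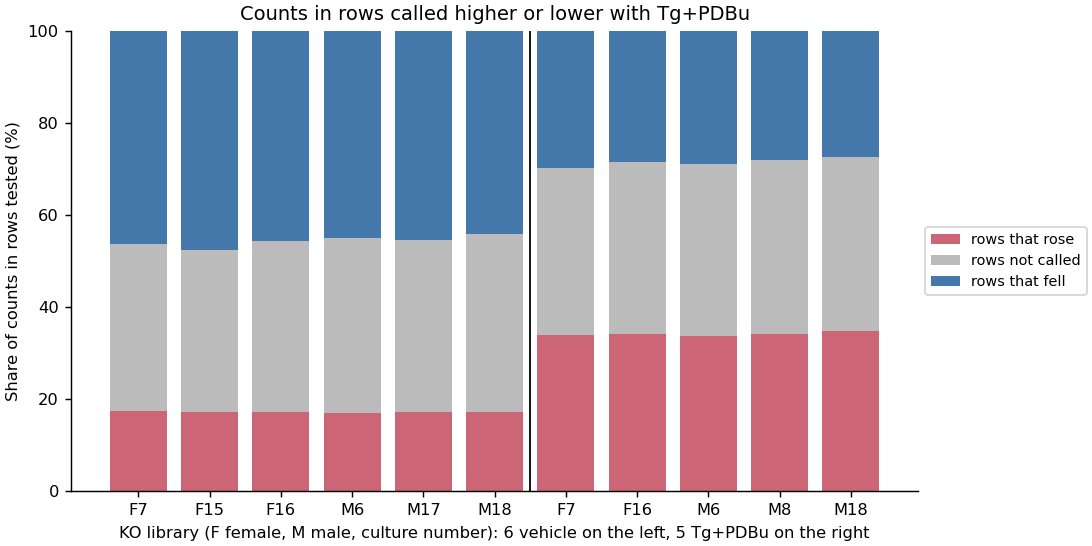
Stacked bars give the share of counts (percent, vertical axis) in each of the 11 KO libraries that fell in rows called higher, called lower or not called with Tg+PDBu. Rows called higher held 17.1% on average in the vehicle libraries on the left and 34.1% in the Tg+PDBu libraries on the right.

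Row 5811 had the largest rise in CPM, where CPM is a TMM-scaled share of a library's counts that is not corrected for transcript length. It stood at 505 to 611 CPM in the 6 vehicle libraries, with a median of 547. With Tg+PDBu it stood at 11038 CPM in female culture 16, 11533 in female 7, 12562 in male 18, 10898 in male 6 and 11919 in male 8. All 5 were far above every vehicle library, and among the rows tested the row moved from rank 142 to rank 1 by mean CPM. The log2 change was 4.39 ± 0.15 (SE, edgeR adjusted p = 1.45e-17), with 4.40 ± 0.22 in females and 4.38 ± 0.21 in males. With LPS it stood at 684 ± 44.1 CPM (SD, n = 5). These libraries ran from 635 to 756 CPM, above every vehicle library. The log2 difference of 0.31 from vehicle was not called (edgeR adjusted p = 0.102).

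Row 17520 had the largest rise in fold among rows averaging at least 4 in log2 CPM. Its vehicle libraries held 0.299 CPM in female culture 15, 0.753 in female 16, 10.8 in female 7, 0.789 in male 17, 4.40 in male 18 and 4.02 in male 6. Its Tg+PDBu libraries held 131 CPM in female 16, 369 in female 7, 259.8 in male 18, 305 in male 6 and 282 in male 8. The groups did not overlap, while the vehicle level varied widely between cultures and female culture 7 was the highest with either treatment. The log2 change was 6.19 ± 0.54 (SE, edgeR adjusted p = 8.41e-10). Without the vehicle library of female culture 7 it was 7.66, and without the Tg+PDBu library of that culture 5.78. Within the 4 cultures the log2 ratio was 7.14 in female 16, 5.07 in female 7, 5.83 in male 18 and 6.18 in male 6. LPS also raised this row in KO cultures, to 46.2 ± 30.3 CPM (SD, n = 5; log2 change 3.24, edgeR adjusted p = 1.83e-05).

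Row 15292 had the largest fall in fold among rows above the same level limit, which leaves out row 1. Its vehicle libraries held 70.7 to 178 CPM, with a median of 116. With Tg+PDBu it held 1.53 CPM in female culture 16, 7.58 in female 7, 2.08 in male 18, 3.11 in male 6 and 1.08 in male 8. Every Tg+PDBu library was thus far below every vehicle library. The log2 change was -5.22 ± 0.39 (SE, edgeR adjusted p = 7.17e-11), and within cultures it ran from -5.37 to -4.52. Without the Tg+PDBu library of female culture 7 it was -5.96, and without that of female culture 16 it was -4.81. LPS lowered it to 47.6 ± 17.5 CPM (SD, n = 5; log2 change -1.28, edgeR adjusted p = 0.00278).

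Row 19643 had the largest fall in CPM. It had rank 3 of the tested rows by mean CPM with vehicle, at 5549 to 10934 CPM with a median of 8174. With Tg+PDBu it held 3472 CPM in female culture 16, 5315 in female 7, 3163 in male 18, 4196 in male 6 and 3524 in male 8. The highest treated library lay just under the lowest vehicle library. The log2 change was -1.05 ± 0.23 (SE, edgeR adjusted p = 0.000505), and the row fell in each of the 4 cultures with both treatments, least in male 18 (-0.81). With LPS the row stood at 8273 ± 2243 CPM (SD, n = 5), a log2 difference from vehicle of 0.02 with an edgeR adjusted p of 0.97.

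In the 4 cultures with both treatments each Tg+PDBu library was set against the vehicle library of the same culture. The ratios used the TMM factors of the fit of all culture libraries. Over all rows tested the median log2 ratio was -0.22 in female 16, -0.17 in female 7, -0.21 in male 18 and -0.22 in male 6. The ratio moved the same way in all 4 cultures in 66.3% of rows, upward in 3722 and downward in 6871. That balance did not hold in a fit of these 4 cultures alone. There the median was -0.03, with 3547 rows called higher and 2987 lower. Among rows called higher 2741 of 2859 (95.9%) rose in all 4, and among rows called lower 4740 of 4929 (96.2%) fell in all 4. These libraries also entered the calls, so the shares describe spread and are no separate test. Among rows not called the share was 38%.

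Females and males were also tested apart. In KO females (2 against 3 libraries) 4635 rows were called, or 29%, with 1921 higher (12%) and 2714 lower (17%). In KO males (3 against 3) 5753 rows were called, or 36%, with 2165 higher (13.5%) and 3588 lower (22.5%). The count of rows that fell in females was 1278 without the Tg+PDBu library of culture 16 and 1598 without that of culture 7. Median changes over all rows were -0.21 in females and -0.24 in males, with median SEs of 0.32 and 0.29.

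The changes of the sexes come from separate libraries, so each list can be read in the other. The calls share an estimate of spread per row from all culture libraries, so shares called in both sexes are not independent. Of the rows called higher in females, 99.5% had a positive change in males and 88.2% were called higher there. Of those called lower in females, 99.4% had a negative change in males and 88.0% were called. Rows called higher in males were called higher in females in 78.2% of cases, and rows called lower in 66.6%. In both sexes 1694 rows rose and 2388 fell, and 1 row was called in opposite directions. Among the rows called higher in females the median log2 change was 0.99 there and 0.96 in males.

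The test of the difference itself, the male minus the female response, called 0 rows (0%) with edgeR. Its lowest adjusted p was 0.97. An unadjusted p under 0.05 was found in 246 of the 15979 rows, fewer than chance alone would give. The test was thus conservative here. DESeq2 called 4 rows and limma voom 0. A difference between the sexes was thus not detectable in any row at this number of libraries with edgeR, which does not show that the sexes respond alike.

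**Figure D4:**
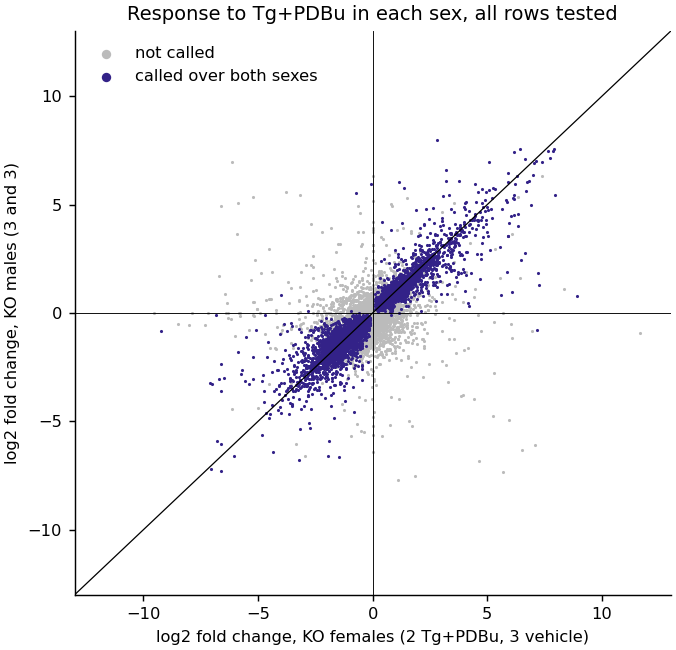
Each point is 1 of the rows tested, with the log2 fold change of Tg+PDBu against vehicle in KO females (horizontal) and KO males (vertical), and colour marks the called rows. Called rows lie near the diagonal, and 7780 of the 7788 have the same direction in both sexes.

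WT cultures with the same treatments (6 and 6 libraries) show how much of the response differs with the genotype. The KO minus WT difference in response was called in 1991 rows, or 12.5% of rows tested, with 772 higher and 1219 lower in KO. Higher and lower are here and below the sign of the difference in log2 change, not of its size or of the level. Among the rows called lower in KO the difference was higher in 270 and lower in 467. With RLE factors the numbers of all rows higher and lower were 1070 and 876, so the balance turned. They became 644 and 788 without the KO female Tg+PDBu library of culture 16. The 4 rows that marked male libraries held at least 144 CPM in males and at most 7.36 in KO females, but 85.3 to 106 in the libraries of WT female culture 3, against at most 6.20 in other WT females. Without that culture the difference was called in 887 rows higher and 1474 lower.

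Most of the large increases in KO were also called in WT. In WT 3849 of all rows tested were called higher (24.1%) and 4325 lower (27.1%). Of the 460 rows that rose past 4-fold in KO, 394 (85.7%) were called higher in WT, against that 24.1%, and 0 were called lower. Their median log2 change was 2.78 in KO, where they were chosen, and 2.85 in WT. The difference between genotypes was called in 70 of them (15.2%, against 12.5% of all rows), 35 higher and 35 lower in KO. Past 8-fold, 175 of 202 rows were called higher in WT, with medians of 3.95 in KO and 3.78 in WT.

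The large decreases had a smaller median in WT. Of the 490 rows that fell past 4-fold in KO, 335 (68.4%) were called lower in WT, against 27.1% of all rows, and 2 were called higher. Their median log2 change was -2.50 in KO and -2.06 in WT, and since they were chosen on the KO values no test of that gap was made. The difference was called in 46 of them (9.39%, against 12.5% of all rows), 15 higher and 31 lower in KO. Of the 490 rows, 275 lay in the lowest class by level, as did 264 of the 460 large increases. The median SE of the KO change was 0.58 in that class, so a difference is harder to call there.

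Read in the other direction, rows chosen on their WT change give KO changes that the choice did not use. The calls of both genotypes share the estimate of spread. The 674 rows that rose past 4-fold in WT were higher in KO in 93.9% of cases and called higher in 504 (74.8%), against 17.9% of all rows. Their median log2 change was 2.93 in WT, where they were chosen, and 2.00 in KO. The single KO libraries with Tg+PDBu were also set against KO vehicle of the same sex. The median difference of these rows was 1.58 in female 16, 1.84 in female 7, 1.57 in male 18, 1.68 in male 6 and 1.50 in male 8. These differences are not fitted changes, so they are not on the same measure as the 2.00. The 623 rows that fell past 4-fold in WT were called lower in KO in 487 cases (78.2%, against 30.8% of all rows), with medians of -2.56 in WT and -1.67 in KO. Choosing rows by a large WT change tends to enlarge the WT medians, so no test of these gaps was made.

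The named rows show the range of these differences. Row 15292 changed by -5.52 ± 0.34 on the log2 scale in WT (SE, edgeR adjusted p = 9.32e-13), from 313 ± 104 to 6.79 ± 2.02 CPM (SD, n = 6 each). The difference in response, 0.31 ± 0.46, was not called (adjusted p = 0.752), with an SE that leaves room for a difference of either sign. Row 19643 changed by -0.91 ± 0.21 in WT, from 12885 ± 3303 to 6853 ± 2066 CPM, and its difference was -0.14 ± 0.31 (edgeR adjusted p = 0.837).

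Among rows called both in KO and in the difference and averaging at least 4 in log2 CPM, row 2675 had the response furthest below WT. In WT it went from 19.5 ± 2.75 CPM with vehicle to 456 ± 90.0 CPM with Tg+PDBu (SD, n = 6 each). In KO it went from 29.5 to 44.3 CPM with vehicle (median 31.9) to 76.6 CPM in female culture 16, 135 in female 7, 72.5 in male 18, 78.4 in male 6 and 84.2 in male 8. All 5 lay above the KO vehicle libraries and below the lowest WT library with Tg+PDBu, at 332 CPM. The log2 change was 1.39 ± 0.16 in KO (SE, edgeR adjusted p = 9.6e-08) and 4.54 ± 0.17 in WT. The difference was -3.15 ± 0.23 (edgeR adjusted p = 4.56e-09), was called in all 30 alternative fits and ran from -3.37 to -2.96. With LPS the same row fell in KO, to 16.9 ± 4.26 CPM (SD, n = 5; log2 change -1.11, edgeR adjusted p = 1.77e-05).

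Under the same limits row 17520 had the response furthest above WT. In WT it went from 7.25 ± 4.26 to 88.6 ± 43.8 CPM (SD, n = 6 each), a log2 change of 3.68 ± 0.48 against 6.19 ± 0.54 in KO. The difference was 2.51 ± 0.66 (SE, edgeR adjusted p = 0.0114), and without the KO female Tg+PDBu library of culture 7 it was 2.06 with an adjusted p of 0.0503. Without the vehicle library of the same culture it was 3.98, with an edgeR adjusted p of 3.95e-05. Row 5811 rose in WT by 4.95 ± 0.15, from 676 ± 84.9 to 21032 ± 2607 CPM. The difference was -0.56 ± 0.19 with an edgeR adjusted p of 0.0497. That call was lost in 22 of 30 alternatives, among them RLE scaling (0.103), DESeq2 (0.0717) and leaving out any of 19 of the 23 libraries, with adjusted p from 0.00378 to 0.136 overall.

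**Figure D5:**
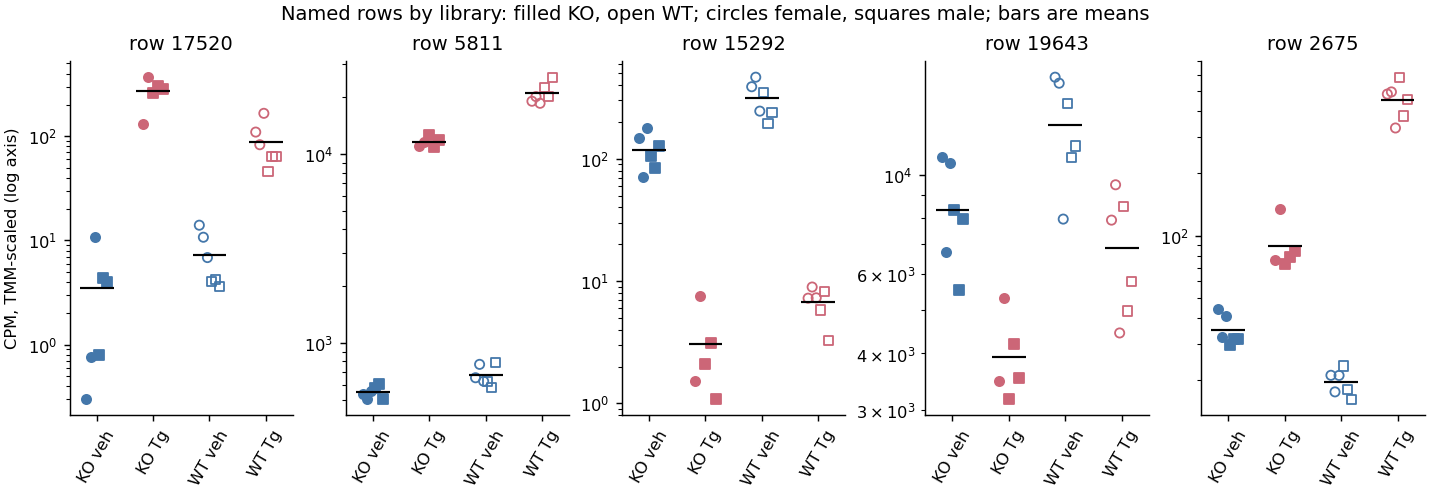
Each panel shows 1 named row with its CPM in every vehicle and Tg+PDBu library on a log axis, KO filled and WT open, females as circles and males as squares, and bars at the means. KO libraries with Tg+PDBu lie at 10898 to 12562 CPM for row 5811, at 1.08 to 7.58 for row 15292, and at 72.5 to 135 for row 2675, where WT libraries reach 586.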

How the data were processed

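RNA sequencing of cultured microglia was analysed from whole-number counts per row as deposited by the authors, without normalization. The submitters' processing notes list Salmon 1.10.1, STAR 2.7.10a, Trim Galore 0.6.7 and GRCm38, with no order or counting settings. Libraries were made from 100 ng of RNA. Of 45707 rows, 28306 had a count in any culture library. Filtering with edgeR's filterByExpr (minimum count 10, minimum total 15) kept 15979 rows with 99.93% of counts. After TMM scaling, rows were tested with edgeR 4.0.16 (quasi-likelihood F test, robust) in R 4.3.3, with all 34 culture libraries in 1 model, a mean per genotype, sex and treatment, and sexes weighted equally. Rows were called at a Benjamini-Hochberg adjusted p under 0.05. SEs follow from the fold change and F statistic, tests were two-sided, and 2 was the prior count behind log2 CPM. Intervals between libraries include counting error, and reads carry no molecular identifiers.

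On simulated counts for KO Tg+PDBu against vehicle, 100 rows were changed 2-fold and 100 4-fold in random directions, none at the lowest levels. The other rows had the same mean in all groups, and cultures did not differ. The test found 80% of the 2-fold and 97% of the 4-fold changes and made 12 false calls in 15325 rows. With 48.7% of rows called in the data, these rates need not hold there. The lowest chi-square per degree of freedom over 10 pairs of replicate libraries was 17.6, so none agreed within sampling noise. Named rows had a mean log2 CPM of at least 4, were called with the same direction in both sexes, and had the largest change in fold or in CPM each way. Rows for the KO minus WT response were called in KO and in the difference and had the largest difference each way. Culture numbers in the library names link the treatments. Deviations from the group means correlated at 0.128 to 0.303 within the 4 shared cultures, so the numbers were taken as pairing the libraries. With 2 female Tg+PDBu libraries, the 2 female values are not independent. The main model had no block for culture, so its p-values do not use the pairing. Alternatives used RLE factors, no filter, fewer groups, DESeq2 1.42.0, limma 3.58.1 voom with quality weights, a block for culture, the 4 paired cultures, and each library left out. The libraries, lists and row rule were chosen with earlier results of these data known. Sorted microglia were not used here.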

Additional observations from a re-analysis of the deposited data

Results flagged for a closer look

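The highest of the 5 KO Tg+PDBu libraries for row 2675, female culture 7 at 135 CPM, stood apart from the other 4 (72.5 to 84.2 CPM) by Dixon's criterion. It was 1 of 16 groups looked at in this way, and chance passes about 1 in 20. The response of row 2675 without that library was called as before.

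The response to Tg+PDBu differed between KO and WT by a direct test in 3 named rows. The KO minus WT difference on the log2 scale was -3.15 in row 2675, 2.51 in row 17520 and -0.56 in row 5811. The first 2 were picked as the largest differences each way among called rows averaging at least 4 in log2 CPM, and the call for row 5811 was lost under most alternatives.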

How the results depend on the processing

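The counts of rows that rose past 4-fold or fell past 4-fold in KO stayed within 1.5 times of their values in all 18 alternatives. Without a filter 309 rows rose and 211 fell past 8-fold, and 773 had a lower response in KO than in WT. In the fit of KO vehicle and Tg+PDBu alone 3035 rows rose in females and 3472 in males. DESeq2 called 4 rows for the sex difference and 1369 with a higher response in KO than in WT. Voom called 19 rows lower past 16-fold, 5435 lower in males and 1857 lower in the KO minus WT response. In the 4 cultures with both treatments 2987 rows fell, 1462 in females and 1534 in males. The cause was not tested.

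Leaving out each library in turn gave 31 to 60 rows lower past 16-fold, 1278 to 2665 lower in females, 0 to 1 for the sex difference, and 788 to 1366 lower in KO than in WT. The extremes of 60, 1278 and 788 came without the female Tg+PDBu library of culture 16, and without that of culture 7 the first was 59. Either omission leaves 1 library in that group, assumed to vary like the others. The sex difference was 1 row without female Tg+PDBu of culture 7 or male vehicle of culture 6. With culture as a replicate block, 2998 rows rose and 5544 fell, and 1068 and 1789 differed from WT. The block changed no call of a named row and moved no count by over 1.5 times. Depth limits the lowest of 4 classes of rows by level, where the median SE was 0.58.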
